A study of Mus musculus with 26 samples.

Results

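The genes described here are 42 skeletal muscle contractile genes, taken by symbol from a mouse expression table of 17023 gene identifiers. All 42 were found, each in a single row. They comprise 14 isoforms of fast fibres, 5 of slow fibres, 3 of developing or regenerating fibres, and 20 genes shared by fibre types: 12 of the sarcomere and Z-disc, 4 of the triad and calcium release, and 4 of energy and oxygen supply. The tongues were those of male mice of the inbred CBA strain, from a study of oral cancer induced by the DNA-damaging quinoline 4-NQO. Fixed tongue was cut by laser along a pathologist's map into epithelium (13 libraries) and the tissue beneath it, labelled stroma (13 libraries), which by the protocol took in muscle as well. Each compartment had 3 normal, 3 hyperplasia, 4 dysplasia and 3 tumor libraries. Normal tissue was taken at an age of 16 to 24 weeks, hyperplasia at 20 to 32 weeks, dysplasia at 16 to 32 weeks and tumor at 28 to 32 weeks, so tumor and normal did not overlap in age. Each group holds libraries of both sequencing runs. Whether normal tissue came from mice given 4-NQO is not stated, and no label names the animal behind a library. P-values then measure the spread between libraries and are too small where libraries share an animal.

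Striated muscle contracts when myosin heavy chains pull on thin filaments of skeletal actin, and troponin and tropomyosin gate that pull by calcium. Adult fibres differ in the isoforms they use: fast fibres carry fast myosin, troponin and calsequestrin, slow fibres carry slow ones, and embryonic and perinatal myosins appear in developing fibres and again in regenerating ones. The tongue is a muscular organ, and its intrinsic muscle in rodents is known as mostly fast. The 5 myosin heavy chain genes of the list stand side by side on chromosome 11 of GRCm38, in the GENCODE annotation (Myh3 at 67078300 to 67102291, Myh2 at 67171027 to 67197517, Myh1 at 67200052 to 67224575, Myh4 at 67238029 to 67260446 and Myh8 at 67277124 to 67308634, all on the plus strand). They are close paralogs, so the authors' counting may have moved reads among them.

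The promoters of an embryonic myosin (Myh3), an embryonic light chain (Myl4), a slow troponin (Tnni1) and an adult fast myosin (Myh4) are shown as examples of the embryonic, slow and adult fast isoforms compared across stages further on; none of the 4 passed a test between stages, and Actn3, which did, has no entry in the table. Each sequence is the 250 bases before the start in the RefSeq table of GRCm38.p6, plus strand: Myh3 at chr11:67078050-67078299, Myl4 at chr11:104550413-104550662, Tnni1 at chr1:135799171-135799420 and Myh4 at chr11:67237562-67237811. Capitals mark 2 motifs of muscle regulators, the E-box CAGCTG, bound by MYOD and myogenin, and the MEF2 motif, searched on both strands (CAGCTG and the MEF2 motif each read the same on either).
Myh3: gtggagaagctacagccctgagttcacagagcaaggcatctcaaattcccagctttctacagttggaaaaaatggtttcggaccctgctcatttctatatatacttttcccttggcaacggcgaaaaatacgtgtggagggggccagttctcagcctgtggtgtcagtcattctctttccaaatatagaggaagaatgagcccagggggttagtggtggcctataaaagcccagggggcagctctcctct
Myl4: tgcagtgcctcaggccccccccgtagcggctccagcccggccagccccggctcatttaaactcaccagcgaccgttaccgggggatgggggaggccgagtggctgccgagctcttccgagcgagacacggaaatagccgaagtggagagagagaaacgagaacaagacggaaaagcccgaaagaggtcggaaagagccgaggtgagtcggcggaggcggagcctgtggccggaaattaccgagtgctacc
Tnni1: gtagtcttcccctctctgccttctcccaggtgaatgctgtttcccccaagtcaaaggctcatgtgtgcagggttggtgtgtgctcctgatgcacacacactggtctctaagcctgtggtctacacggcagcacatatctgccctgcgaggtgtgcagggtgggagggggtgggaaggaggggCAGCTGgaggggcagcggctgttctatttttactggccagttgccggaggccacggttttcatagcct
Myh4: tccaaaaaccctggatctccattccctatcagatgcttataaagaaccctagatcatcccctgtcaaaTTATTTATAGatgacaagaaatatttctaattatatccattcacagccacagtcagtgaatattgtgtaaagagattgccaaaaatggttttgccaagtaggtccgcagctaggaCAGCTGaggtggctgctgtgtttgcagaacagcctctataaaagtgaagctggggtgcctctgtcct
Neither motif stood in these windows of Myh3 and Myl4. The Tnni1 window held CAGCTG at -68, and that of Myh4 held CAGCTG at -67 and a MEF2 motif at -182, where -1 is the base before the start. Of the 42 genes, 33 had a promoter in the table. Among these 33, 14 held CAGCTG (42.4%) and 8 held the MEF2 motif (24.2%), against 12.8% and 3.0% of the windows of 27025 genes. A match is a string of letters and not a bound site.

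Values below are log2(TPM + 1), a length-scaled level, and differences are log2 differences ± SE from limma. On this scale the change of a low gene is understated, and TPM keeps no record of depth, so none is known. In some libraries much of the TPM went to only 3 genes (Lars2, March6, D17H6S53E), which lowers the level of every other gene there. Their share of the summed TPM of all listed genes had a median of 1.02% over the 26 libraries. It came to 86.9% for hyperplasia stroma 1, with 17 of the 42 muscle genes listed at 0, to 54.9% for dysplasia stroma 2, with 7 at 0, and to 48.2% for normal stroma 1, with 2 at 0. Dysplasia epithelium 2 had 18.1%. The summed TPM itself ran from 169744 in tumor stroma 1 to 886004 in hyperplasia stroma 1, so levels are not shares of a common total. As a gauge of background, the mean of 259 olfactory receptor genes was between 0.38 and 2.25 per library. All 9 keratinocyte markers tested were higher in epithelium than in stroma (median difference 3.10) and all 8 fibroblast markers were lower (median -3.19), but neither was absent from the other side: over 3 normal libraries each, keratinocyte markers averaged 9.04 in epithelium and 7.17 in stroma, and fibroblast markers 3.59 in epithelium and 6.99 in stroma.

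The muscle genes were lower in epithelium than in stroma, and the fast isoforms and the shared genes carried this difference. Of the 42, 35 passed the test at an adjusted p of 0.05, all lower in epithelium, with a median difference of -2.22 over the 42 and 0.15 over all genes tested. Of 16020 genes tested, 29.5% were called and 10.7% were lower in epithelium. All 14 fast isoforms were called (median -2.61), as were all 4 genes of energy and oxygen supply (median -3.02), all 4 of the triad (median -1.76) and 10 of 12 of the sarcomere and Z-disc (median -2.47). Of the slow isoforms 1 of 5 was called (median -0.40), and of the developmental isoforms 2 of 3 (median -1.02). In bulk tissue fewer muscle cells and less muscle RNA per cell cannot be told apart.

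Among shared genes, Hspb7, a small heat shock protein of muscle, was between 0.00 and 3.82 over the 13 epithelium libraries (median 1.30) and between 1.46 and 5.60 over the 13 stroma libraries (median 4.06). Every pair had the lower value in epithelium, for a difference of -2.43 ± 0.35 (limma adjusted p = 9.63e-05). Skeletal actin, Acta1, ran from 0.33 to 7.74 in epithelium (median 3.88) and from 4.15 to 10.50 in stroma (median 7.89). It was lower in epithelium in 12 of 13 pairs, by -3.75 ± 0.67 (limma adjusted p = 0.000516). The ranges overlap: 6 epithelium libraries were above the lowest stroma library, dysplasia stroma 4 at 4.15. Other leading genes were Klhl41, a Kelch protein of the sarcomere (-1.84), Xirp2, an actin-binding repeat protein (-2.83), Pygm, the glycogen phosphorylase of muscle (-2.84), Des, the intermediate filament desmin (-2.92), and Eno3, the muscle enolase (-2.36).

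Among fast isoforms, the IIa myosin Myh2 differed by -2.31 ± 0.34 (limma adjusted p = 1e-04, 13 of 13 pairs), the IIx myosin Myh1 by -2.93 ± 0.47 (12 of 13 pairs) and the IIb myosin Myh4 by -3.60 ± 0.73 (12 of 13 pairs). The smallest difference of a fast isoform was that of Actn3, the alpha-actinin of fast fibres (-0.75 ± 0.21, limma adjusted p = 0.012, 8 of 13 pairs). With a pseudocount of 0.1 neither Actn3 nor the developmental Myl4 (-1.19 ± 0.32) passed (limma adjusted p = 0.0923 and 0.166). Most slow isoforms did not pass between compartments: Casq2, the calsequestrin of slow and cardiac fibres, at -0.05 ± 0.26 (0.37 with a pseudocount of 0.1), Tnnc1, slow troponin C, at -0.23 ± 0.31, Tnnt1, slow troponin T, at -0.40 ± 0.29, and Tnni1, slow troponin I, at -0.41 ± 0.21. Mybpc1, the slow myosin-binding protein C, was the exception at -2.82 ± 0.48 (limma adjusted p = 0.000341). Over the 13 stroma libraries Mybpc1 averaged 4.52, against 1.77 for Casq2, 1.90 for Tnni1, 2.64 for Tnnc1 and 3.49 for Tnnt1. A gene that is low in stroma has little room to be lower in epithelium. The other genes not called were Actn2, an alpha-actinin of all fibre types (-0.42), Tpm2, beta-tropomyosin (-0.27), and the embryonic myosin Myh3 (-0.48). Tpm2 and Actn2 were also the genes of the list with the highest mean over the 13 epithelium libraries, 5.83 ± 0.88 and 4.23 ± 0.70 (SD). Without the 3 stroma libraries set apart above, and their partners, 36 of 42 were called lower in epithelium and the median was -2.67. The share of all genes called lower in that fit is not given here.

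**Figure D1:**
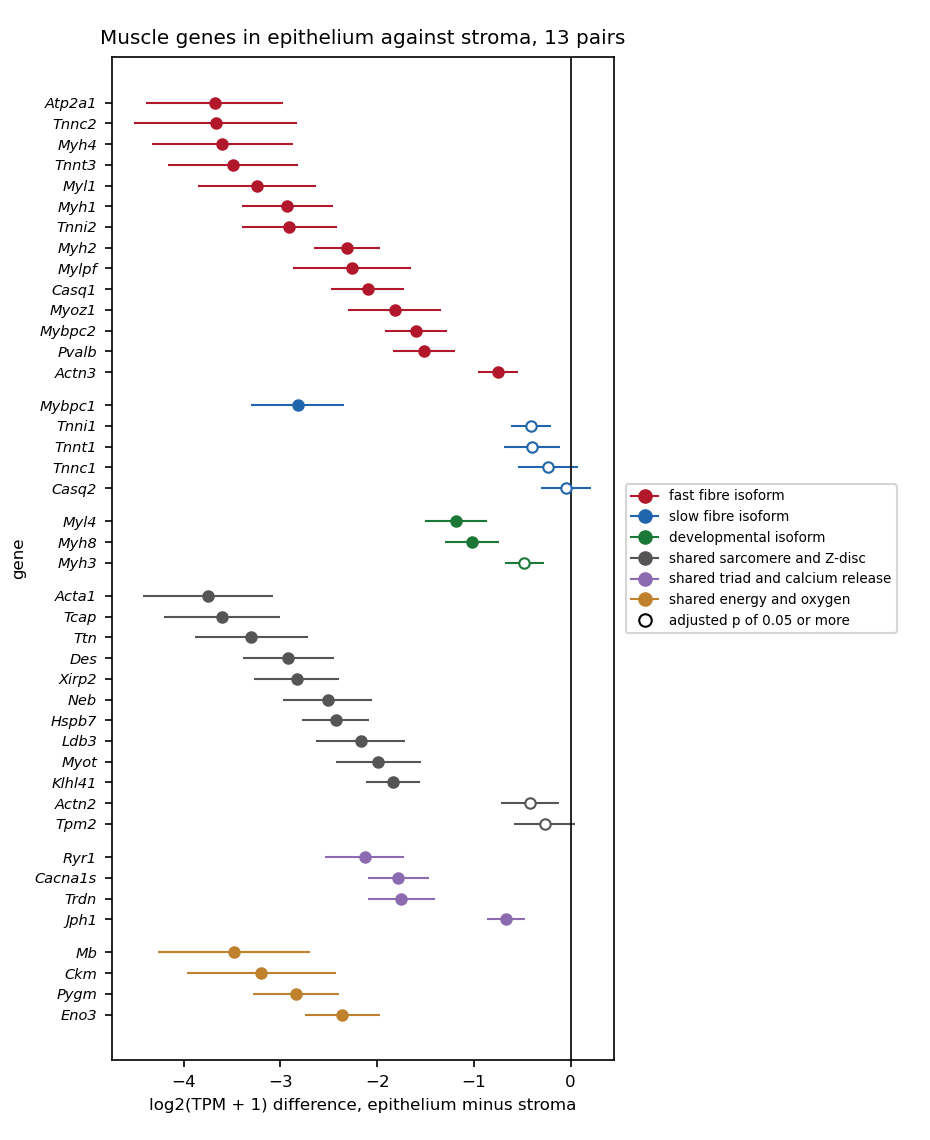
Log2(TPM + 1) difference, epithelium minus stroma, with SE from limma over 13 pairs, for each of the 42 genes by list. All 42 points lie left of 0 (Casq2 turns to 0.37 with a pseudocount of 0.1), and open points, which did not pass adjusted p 0.05, include 4 of the 5 slow isoforms.

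The muscle genes varied widely between libraries of a stage, in both compartments. The mean over the 42 genes was 4.84, 6.63 and 5.11 in normal stroma, 1.70, 4.57 and 4.41 in hyperplasia stroma, 3.82, 3.32, 4.80 and 2.34 in dysplasia stroma, and 5.11, 6.16 and 4.84 in tumor stroma. In epithelium it was 2.63, 1.16 and 4.45 in normal tissue, 2.90, 2.11 and 1.61 in hyperplasia, 1.17, 1.75, 1.36 and 1.26 in dysplasia, and 3.79, 3.53 and 2.38 in tumor. The 4 dysplasia epithelium libraries were thus all below the 3 of tumor, while normal epithelium spanned both.

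**Figure D2:**
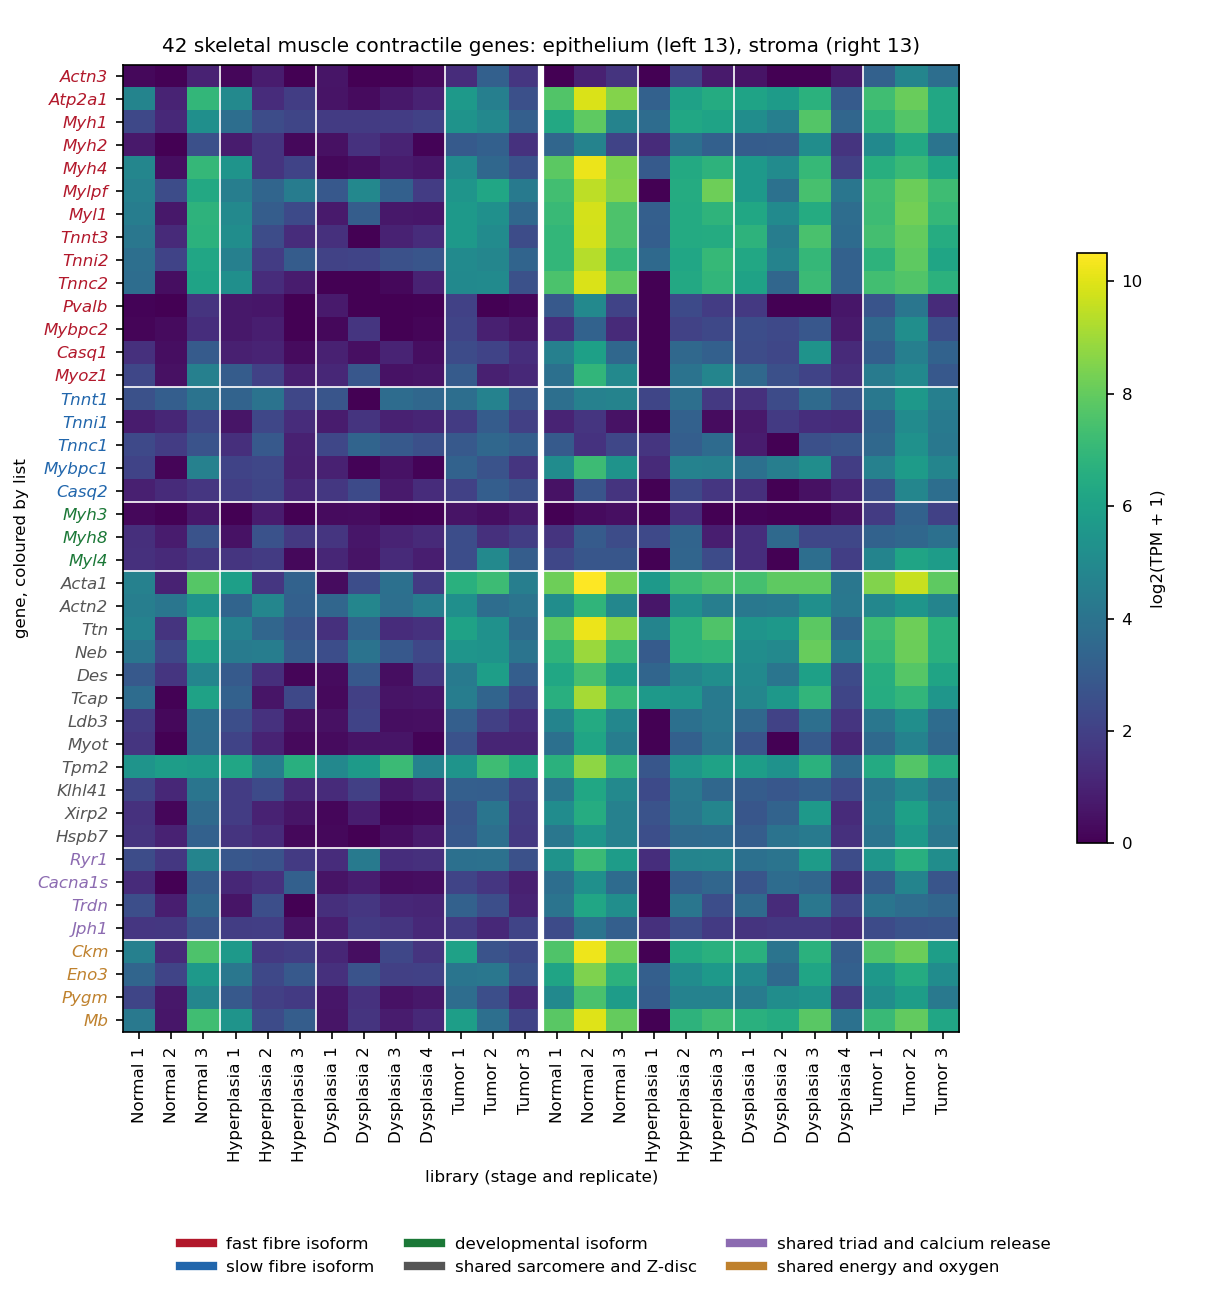
Log2(TPM + 1) of the 42 genes (rows, by list) in each library (columns, by stage and replicate, epithelium then stroma). Normal stroma 2 and tumor stroma 2 have the highest means (6.63 and 6.16), hyperplasia stroma 1 has 17 genes at 0, and Actn3, Tnni1 and Myh3 are higher in the 3 tumor stroma libraries than in any other stroma library. As a percentage of a library's summed TPM, the 42 genes hold 4.384% in normal stroma 2 and 0.935% in tumor stroma 2. They hold 1.642% in tumor stroma 1 and 1.584% in normal stroma 3.

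Tumor stroma was set against dysplasia stroma to follow the last step of the model. All 42 differences were positive (median 1.55, against 0.02 over all genes, of which 51.5% were positive), but only Actn3 passed the test, in a comparison where 0.143% of 15345 genes were called, every one higher in tumor. The median difference was 2.71 for slow isoforms, 2.26 for developmental isoforms, 1.69 for fast isoforms, 1.44 for sarcomere and Z-disc genes, 0.99 for energy and oxygen genes and 0.86 for triad genes. At an unadjusted p under 0.05, 11 of the 42 stood out, 4 of 5 slow, 2 of 3 developmental and 3 of 14 fast isoforms among them, against 2.83% of all genes. In the same comparison keratinocyte markers were positive in 8 of 9 (median 0.80), with a summed TPM of 946.7 to 5906.1 in tumor stroma and 337.7 to 6501.3 in dysplasia stroma. Fibroblast markers were negative in 6 of 8 (median -0.54; 731.1 to 2512.4 in tumor stroma and 822.9 to 2472.1 in dysplasia stroma), macrophage markers in 6 of 6 (median -0.39; 51.3 to 187.1 in tumor stroma and 19.0 to 302.0 in dysplasia stroma) and Schwann cell markers in 4 of 5 (median -0.98; 16.1 to 43.6 in tumor stroma and 36.4 to 109.1 in dysplasia stroma). None of these markers had an unadjusted p under 0.05 in limma, and their part in the muscle values was not tested. All tumor libraries lay above all dysplasia libraries for 12 of the 42 (28.6%, against 2.86% of all genes).

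Actn3 was 3.27, 4.76 and 3.80 in tumor stroma, against 0.55, 0.00, 0.00 and 0.69 in dysplasia stroma. It was 0.00, 2.03 and 0.76 in hyperplasia stroma and 0.00, 0.98 and 1.59 in normal stroma. The 3 tumor libraries stood above the 10 others without overlap, and tumor exceeded dysplasia by 3.62 ± 0.69 (limma adjusted p = 0.00392). Outside tumor only hyperplasia stroma 2 and normal stroma 3 reached a TPM of 1, so Actn3 entered the test through the tumor libraries in which it was high. With no filter its limma adjusted p was 0.0111. The call did not hold without tumor stroma 2 (2.98, adjusted p = 0.511) or dysplasia stroma 3 (3.47, adjusted p = 0.0789), nor with a pseudocount of 0.1, a stricter filter, rescaling or no trend. Over 24 alternatives the difference stayed between 2.98 and 5.68 and the adjusted p between 0.0008 and 1, with 18 alternatives past 0.05. Actn3 also passed the test for any difference among stages in stroma (limma adjusted p = 0.0145), the only one of the 42 to do so, where 0.169% of all genes passed and 31 of the 42 had an unadjusted p under 0.05, against 4.69% of all genes.

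Myl4, a light chain of embryonic muscle and of the atrium, was 4.72, 6.14 and 5.80 in tumor stroma, against 1.39, 0.00, 3.80 and 1.95 in dysplasia stroma. Every tumor library was above every dysplasia library, for a difference of 3.56 ± 0.88 that did not pass (limma adjusted p = 0.0943). In normal stroma Myl4 was 2.25, 2.81 and 2.79. The embryonic myosin Myh3 was 1.81, 3.31 and 2.03 in tumor stroma, against 0.10, 0.00, 0.00 and 0.47 in dysplasia stroma. The groups do not overlap (2.26 ± 0.55, limma adjusted p = 0.0862), but the levels are low: the olfactory receptor mean in the same tumor libraries was 1.47, 0.91 and 1.57. Outside tumor only hyperplasia stroma 2 (1.39) reached a TPM of 1, so Myh3 too entered the test through its tumor libraries. The perinatal myosin Myh8 was 3.30, 3.49 and 3.87 in tumor stroma, against 1.37, 3.60, 2.25 and 2.22 in dysplasia stroma, with overlap (1.17 ± 0.85).

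Of the slow isoforms, Tnni1 was 3.33, 5.07 and 4.29 in tumor stroma, against 0.70, 1.78, 1.39 and 1.31 in dysplasia stroma. Its tumor libraries were also above those of normal stroma (1.03, 1.61 and 0.52), although hyperplasia stroma 2 reached 3.28. The difference from dysplasia was 2.88 ± 0.80 (limma adjusted p = 0.279). Casq2 was 2.55, 4.81 and 3.80 in tumor stroma, against 1.43, 0.00, 0.49 and 1.05 in dysplasia stroma, with no overlap (2.90 ± 0.78, limma adjusted p = 0.202). Normal stroma 2 reached 2.78, above tumor stroma 1. Tnnc1 was 3.54, 5.30 and 4.19 in tumor stroma, against 0.82, 0.00, 2.55 and 2.76 in dysplasia stroma, again apart (2.71 ± 0.87). Hyperplasia stroma 3 reached 3.68, above tumor stroma 1. Tnnt1 was 4.21, 5.59 and 4.55 in tumor stroma, against 1.46, 2.39, 3.62 and 2.61 in dysplasia stroma (2.21 ± 0.86). Normal stroma 3 reached 4.71, within the tumor range. Neither Tnnc1 nor Tnnt1 passed the test. The slow Mybpc1 overlapped, at 4.62, 5.78 and 4.77 in tumor stroma, against 3.86, 4.48, 5.16 and 1.89 in dysplasia stroma, and did not pass.

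Most adult fast isoforms and shared genes overlapped. The exceptions, with every tumor library above every dysplasia library, were the fast Actn3 and Myl1 and the shared Des, Myot, Klhl41 and Jph1. Myl1 was 7.21, 8.27 and 6.99 in tumor stroma, against 6.25, 5.04, 6.44 and 3.76 in dysplasia stroma. Myh4 was 6.60, 7.06 and 6.18 in tumor stroma, against 5.66, 5.07, 7.04 and 1.98 in dysplasia stroma, where dysplasia stroma 3 reached the tumor range. Myh1 was 6.82, 7.69 and 6.30 in tumor stroma, against 5.16, 4.54, 7.67 and 3.47 in dysplasia stroma. Ckm, the creatine kinase of muscle, was 7.61, 8.15 and 5.88 in tumor stroma, against 6.66, 4.06, 6.72 and 3.09 in dysplasia stroma. Dysplasia stroma 4 was lowest for Myh4, Myh1 and Ckm. The fast troponins Tnni2 (6.77, 7.88 and 6.19 in tumor stroma, against 6.29, 4.69, 7.01 and 3.26 in dysplasia stroma) and Tnnt3 (7.35, 8.02 and 6.51 in tumor stroma, against 6.77, 4.44, 7.48 and 3.69 in dysplasia stroma) overlapped in the same way.

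**Figure D3:**
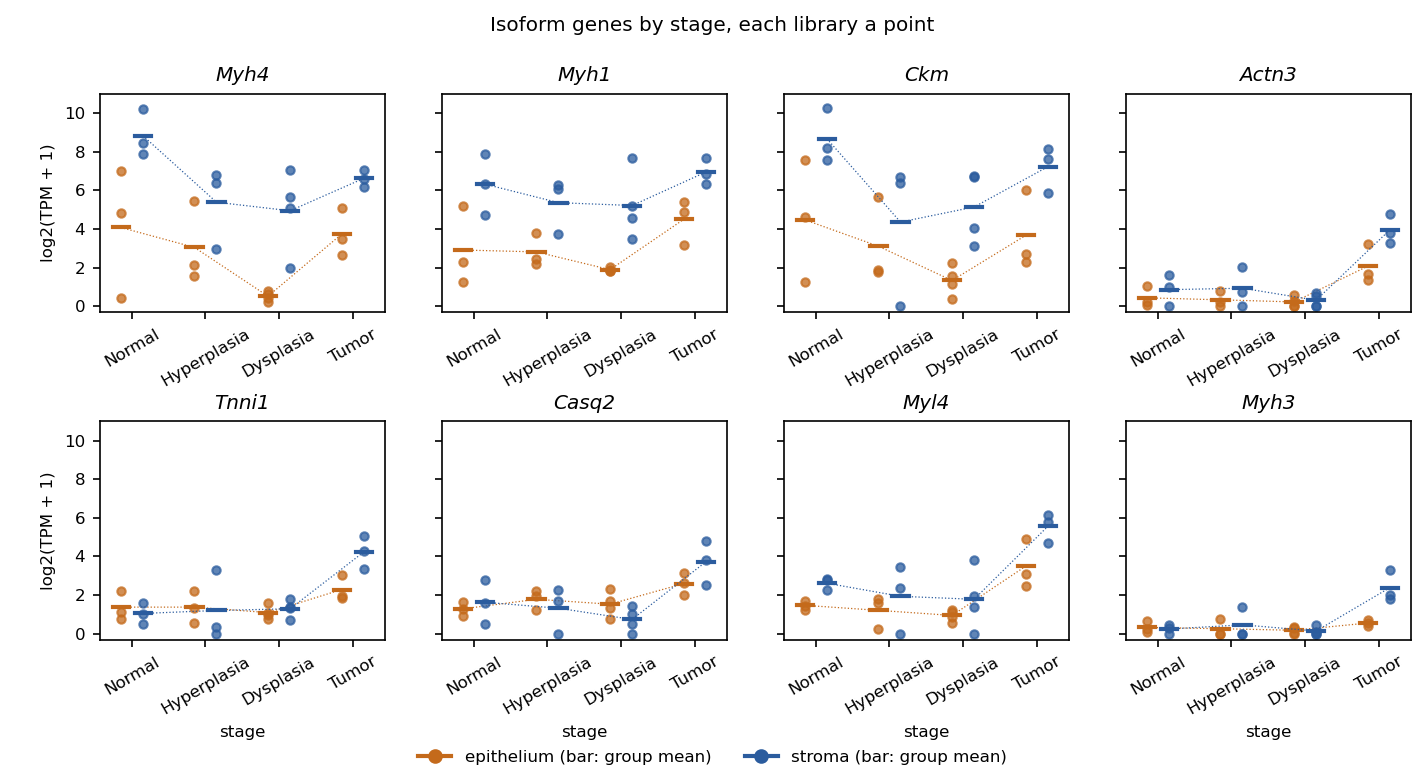
Log2(TPM + 1) of 8 genes by stage in epithelium and stroma, each point a library and each bar a group mean. In stroma Myh4 and Ckm are highest in normal tissue (means 8.82 and 8.67), while Actn3, Tnni1, Casq2, Myl4 and Myh3 are highest in tumor (means 3.94, 4.23, 3.72, 5.55 and 2.39).

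Set against normal stroma, tumor stroma showed slow and developmental isoforms on the positive side and fast and shared genes on the negative side, but no gene of the list passed the limma test. All 3 developmental isoforms (median 2.17) and 4 of 5 slow isoforms (median 1.90) had positive differences. Of the fast isoforms 10 of 14 were negative (median -1.12), as were 11 of 12 sarcomere and Z-disc genes (median -0.89), all 4 triad genes (median -0.78) and all 4 energy and oxygen genes (median -1.81). The median over all genes was -0.04. Of all genes 0.0521% were called, and 7 of the 42 had an unadjusted p under 0.05, against 1.91% of all genes. The groups did not overlap for 6 genes with all tumor libraries above (Actn3, Tnni1, Tnnc1, Myh3, Myh8 and Myl4, 14.3% of the 42 against 5.12% of all genes) and for Myh4 with all tumor libraries below (2.4%, against 2.43% of all genes).

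The smallest p-values were those of Actn3 (3.05 ± 0.76, limma adjusted p = 0.149), Myh3 (2.17 ± 0.60, adjusted p = 0.367) and Tnni1 (3.06 ± 0.87, adjusted p = 0.428). Myh4 averaged 6.62 ± 0.44 in tumor stroma and 8.82 ± 1.22 in normal stroma (SD, n = 3 each), a difference of -2.48 ± 1.09. Normal stroma had Myh4 at 7.86, 10.19 and 8.42. The difference of Myh2 was positive, with 5.0, 6.32 and 4.04 in tumor stroma, against 3.45, 4.68 and 2.12 in normal stroma (1.5 ± 1.00, not called). In the same comparison Schwann cell markers were negative in 4 of 5 (median -0.65), with a summed TPM of 16.1 to 43.6 in tumor stroma and 103.4 to 116.7 in normal stroma, and macrophage markers were positive in 6 of 6 (median 0.86), and their part in these values was not tested.

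The heavy chains were also compared within libraries. As a percentage of the summed TPM of the 5 heavy chain genes, Myh4 was 38.4, 30.4 and 39.5% in tumor stroma, against 71.5, 81.1 and 91.1% in normal stroma. Myh1 was 44.7, 47.1 and 42.8% in tumor stroma, against 24.8, 16.6 and 6.7% in normal stroma, and Myh2 was 12.4, 18.1 and 8.5% in tumor stroma, against 3.1, 1.7 and 0.9% in normal stroma. For each of the 3 the groups do not overlap. Myh4 held 28.1, 44.8 and 59.1% in hyperplasia stroma and 53.1, 44.2, 35.2 and 15.5% in dysplasia stroma, so every normal library had a larger Myh4 share than every other stroma library. Myh3 stayed small, at 1.0, 2.0 and 1.7% in tumor stroma, against 0.0, 0.0 and 0.1% in normal stroma. These shares were looked at after the levels were seen and carry no test.

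**Figure D4:**
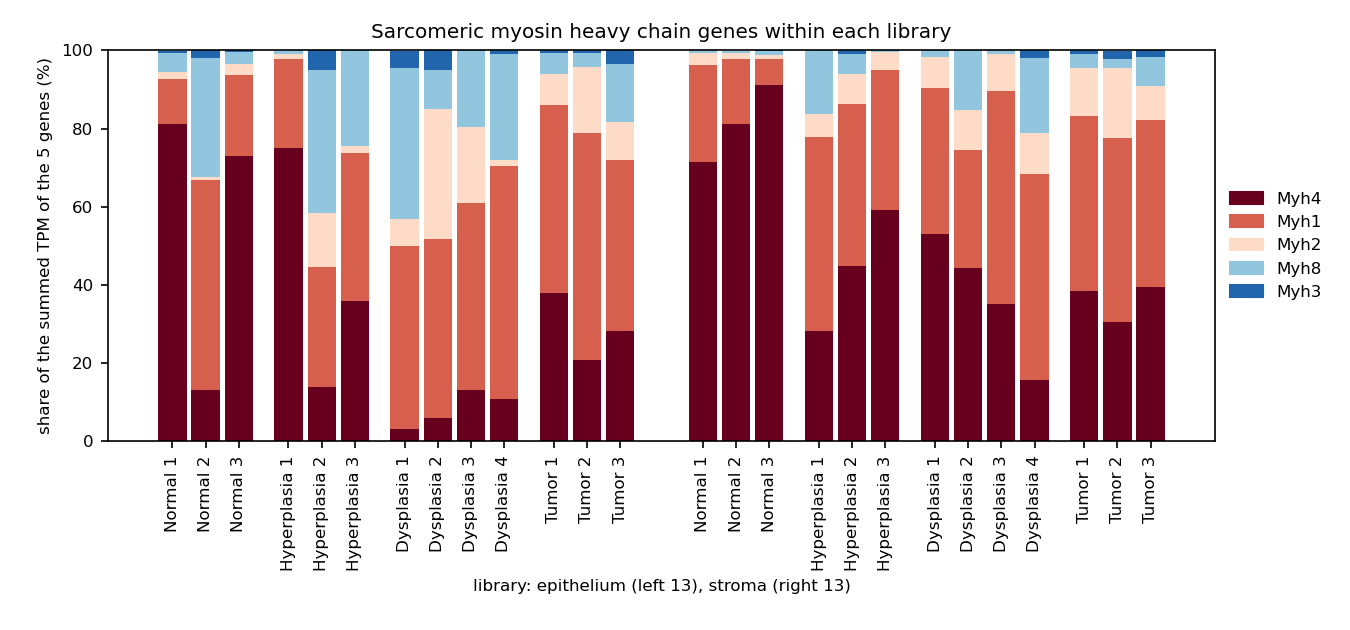
Share of the summed TPM of 5 myosin heavy chain genes (percent) in each library, stacked, epithelium then stroma by stage. The Myh4 share is 30.4 to 39.5% in tumor stroma, where Myh1 holds 42.8 to 47.1%, and 71.5 to 91.1% in normal stroma.

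The ratios of 9 pairs of isoforms were taken within libraries where at least 1 of the 2 genes had a TPM of 5 or more. Of these, 5 set a fast against a slow isoform, Actn3 to Actn2 sets the fast alpha-actinin against that of all fibre types, Myh4 to Myh2 and Myh1 to Myh2 set fast heavy chains against each other, and Myl1 to Myl4 sets an adult against an embryonic light chain. Tumor was compared with the 10 libraries of the other stages by exact permutation tests, two-sided, adjusted over the ratios of a compartment. In stroma the ratio of Actn3 to Actn2 was -1.61, -0.73 and -0.96 in tumor and between -5.90 and -3.25 in 9 other libraries. The 2 sets do not overlap, and the difference of 3.13 ± 0.42 had the smallest p that 220 arrangements allow (exact permutation p = 0.00455, adjusted p = 0.0409). Actn3 was 0.00 in normal stroma 1, dysplasia stroma 2 and dysplasia stroma 3, where Actn2 alone sets the ratio. The result rests on the same Actn3 values as the levels above and is not separate from them. Of the 12 libraries with a value, leaving out dysplasia stroma 4 kept the call (3.22, exact permutation adjusted p = 0.0273), and leaving out any of the other 11 ended it (differences from 2.92 to 3.38, adjusted p between 0.0545 and 0.164), with fewer arrangements in each case. Without the 3 stroma libraries set apart above it did not hold either (2.98, adjusted p = 0.075). The only other ratio with all tumor libraries apart was Casq1 to Casq2, fast to slow calsequestrin. It was 0.59, -0.27 and -0.49 in tumor and between 1.24 and 4.92 in 6 other libraries (difference -2.86 ± 0.69, exact permutation p = 0.0238, adjusted p = 0.0909). In each of those 6 Casq1 was at 3.23 or more, and libraries low in both genes had no ratio. Dysplasia stroma 4, left out, had Casq1 at 1.24 and Casq2 at 1.05, and hyperplasia stroma 1 had both at 0.00. The separation thus holds only among libraries chosen by a high level, mostly of Casq1.

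Myl1 to Myl4, adult to embryonic light chain, averaged 1.94 in tumor stroma and 4.15 in the other 10 libraries (difference -2.22 ± 0.62, exact permutation p = 0.0490, adjusted p = 0.11). It passed without dysplasia stroma 4 (-2.48, adjusted p = 0.0273). Tnni2 to Tnni1, fast to slow troponin I, averaged 2.71 in tumor stroma and 4.95 in the other 10 (difference -2.23 ± 0.76, exact permutation adjusted p = 0.121), with 5.94, 7.72 and 6.53 in normal stroma. The spread among the other stages was wide, as dysplasia stroma 4 alone had 1.94. Troponin T and troponin C ratios differed by -0.66 ± 0.61 and -1.41 ± 0.84, within the spread. Mybpc2 to Mybpc1 lay on the other side, at 1.5 ± 0.61 (exact permutation p = 0.0303, adjusted p = 0.0909). The ratios of Myh4 and Myh1 to Myh2 differed by -1.88 ± 0.69 and -0.62 ± 0.30 and did not pass. In epithelium no ratio that could be tested passed in tumor against the other stages. There Actn3 to Actn2 differed by 1.6 ± 0.98 (exact permutation adjusted p = 0.122) and Myl1 to Myl4 by -1.71 ± 1.13. The ratios of troponin I, T and C differed there by -0.55 ± 0.72, 1.1 ± 0.98 and 0.85 ± 1.51.

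Between compartments, 3 of the 6 ratios that could be tested differed, each with a lower fast-to-slow value in epithelium. In the test of levels the fast gene of each was called lower in epithelium and the slow gene was not. These ratios rest on the same values and are not separate from that test. Tnni2 to Tnni1 averaged 2.49 in epithelium and 4.81 in stroma over 9 pairs (difference -2.32 ± 0.66, exact permutation adjusted p = 0.0234, lower in epithelium in 8 of 9 pairs). Tnnt3 to Tnnt1 averaged -0.14 in epithelium and 2.95 in stroma over 11 pairs (-3.09 ± 0.74, exact permutation adjusted p = 0.0117, 10 of 11). Tnnc2 to Tnnc1 averaged 0.03 in epithelium and 4.10 in stroma over 8 pairs (-4.07 ± 0.81, exact permutation adjusted p = 0.0234, 8 of 8), and rescaling without the 3 dominant genes ended this call (-2.39, adjusted p = 0.211). Myl1 to Myl4 averaged 2.39 in epithelium and 3.61 in stroma over 8 pairs (-1.22 ± 0.41, exact permutation adjusted p = 0.0586), and passed without hyperplasia epithelium 1 (-1.42) or tumor epithelium 1 (-1.49), each with an adjusted p of 0.0391. The pseudocount draws the ratio of low genes toward 0, and in epithelium the fast isoforms were low. Tnnt3 was 1.46, 0.00, 1.00 and 1.33 in dysplasia epithelium, where Tnnt1 was 2.77, 0.00, 3.71 and 3.52.

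**Figure D5:**
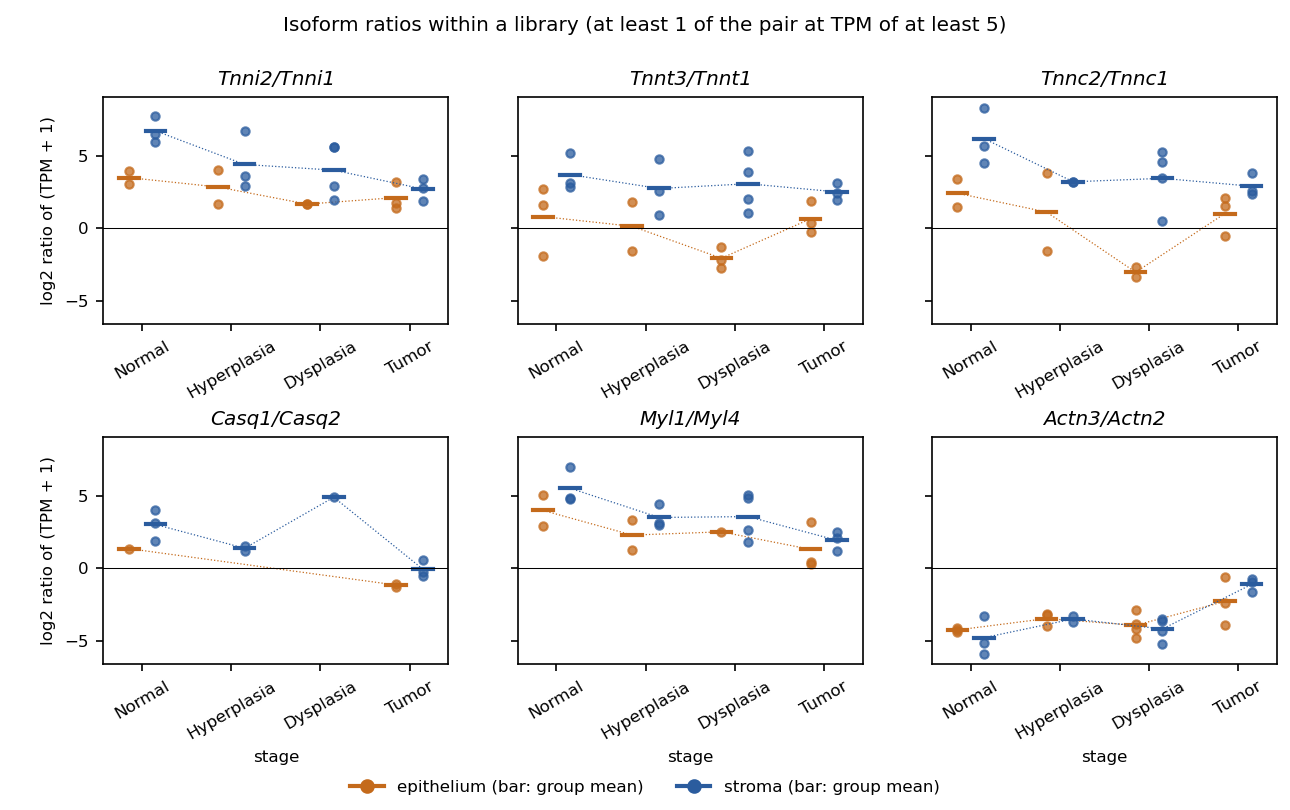
Log2 ratio of 2 isoforms within a library, on TPM + 1, by stage in epithelium and stroma, with bars at group means. In tumor stroma the Actn3 to Actn2 ratio lies between -1.61 and -0.73, above every other stroma library shown, and the Casq1 to Casq2 ratio lies between -0.49 and 0.59, below them.

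In epithelium no gene of the list passed the limma test in any comparison of stages. Tumor against dysplasia showed the widest shift: all 40 genes tested had positive differences (median 1.80, against 0.01 over all genes), 26 had an unadjusted p under 0.05, and tumor libraries lay above dysplasia libraries without overlap for 24 (60.0%, against 2.77% of all genes). None of the 14541 genes tested was called (0%), with 2.30% at an unadjusted p under 0.05. Myh3 and Pvalb, the calcium buffer parvalbumin, did not reach a TPM of 1 in 3 epithelium libraries and were not tested. For any difference among stages 25 of the 40 had an unadjusted p under 0.05, against 5.03% of all genes, and 0.165% of all genes passed. The smallest p-values in tumor against dysplasia were those of Myl4 (2.61 ± 0.49), Hspb7 (2.5 ± 0.53) and Des (3.31 ± 0.72), each with a limma adjusted p of 0.338.

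Myl4 was 2.47, 4.93 and 3.09 in tumor epithelium, against 1.11, 0.56, 1.24 and 0.89 in dysplasia epithelium. Its tumor libraries were also above all normal ones (1.46, 1.24 and 1.72), with a difference from normal of 2.15 ± 0.53 (limma adjusted p = 0.208). Acta1 was 6.66, 7.18 and 4.50 in tumor epithelium, against 0.33, 2.5, 3.88 and 1.78 in dysplasia epithelium, with no overlap. Normal epithelium 3 at 7.74 was above all of them. Myh4 was 5.06, 3.49 and 2.64 in tumor epithelium, against 0.22, 0.41, 0.79 and 0.64 in dysplasia epithelium. Without normal epithelium 3, which had the highest mean of the 42 genes in its compartment, 7 members passed the test of tumor against dysplasia, and without dysplasia epithelium 2, 1 did. The share of all genes called in those fits is not given here, so these counts do not show whether the muscle genes stood out. In the main fit of tumor against dysplasia, fibroblast markers had a median difference of 1.41, with 8 of 8 positive and 6 at an unadjusted p under 0.05. The median for keratinocyte markers was -0.05. The summed TPM of the 42 genes was 300.1 to 937.1 in tumor epithelium and 93.2 to 235.7 in dysplasia epithelium, and the part of co-cut underlying tissue was not tested.

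Against normal epithelium, tumor epithelium had 25 of 40 positive differences (median 0.35, with 51.2% of all genes positive). None of the 40 passed the limma test, where 0.0206% of all genes were called (0.0138% higher and 0.00688% lower), and 5 had an unadjusted p under 0.05, against 4.48% of all genes. Actn3, Tnnc1, Casq2 and Myl4 were above normal in all tumor libraries (10.0% of 40, against 3.67% of all genes). Actn3 was 1.34, 3.20 and 1.66 in tumor epithelium, against 0.22, 0.06 and 1.02 in normal epithelium (1.66 ± 0.48, limma adjusted p = 0.332), and Casq2 differed by 1.41 ± 0.45 (limma adjusted p = 0.500). Both were low beside Acta1 or Tpm2. Outside tumor epithelium, Actn3 reached a TPM of 1 only in normal epithelium 3, so here too it entered the test through its tumor libraries. Myh4 was 5.06, 3.49 and 2.64 in tumor epithelium, against 4.82, 0.41 and 6.99 in normal epithelium, with overlap.

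No gene of the list passed in the steps before tumor. In hyperplasia against normal stroma 38 of 42 differences were negative (median -2.40) and 29 had an unadjusted p under 0.05, against 6.86% of all genes, but none passed the limma test (0.00652% of all genes did). The median over all genes was itself -0.71, and 18% of genes were positive. All hyperplasia libraries lay below all normal ones for 20 genes (47.6%, against 5.53% of all genes), Ckm (-4.82 ± 1.16, limma adjusted p = 0.193), Tnnc2 (-4.68 ± 1.13) and the myoglobin Mb (-4.44 ± 1.17) having the smallest p. Markers of other cells were also on the negative side, none called by limma: fibroblast markers in 8 of 8 (median -1.75), with a summed TPM of 223.6 to 2037.9 in hyperplasia stroma and 868.6 to 3745.5 in normal stroma, keratinocyte markers in 9 of 9 (median -1.65), with 189.9 to 1460.8 in hyperplasia stroma and 2952.8 to 4254.2 in normal stroma, and Schwann cell markers in 5 of 5 (median -1.29), with 1.9 to 62.4 in hyperplasia stroma and 103.4 to 116.7 in normal stroma. Their part in the muscle values was not tested. Without hyperplasia stroma 1, normal stroma 1 and dysplasia stroma 2 the Ckm difference was -2.38 and that of Tnnc2 -2.28. Dysplasia against hyperplasia gave a median of 0.06 in stroma, with 24 of 42 positive, against a median of 0.63 over all genes, of which 77.9% were positive. There Mb had the smallest p at 1.79 ± 1.08 and turned to -0.95 without those 3 libraries. None of the 42 was called by limma or had an unadjusted p under 0.05 there, where 0% and 7.42% of all genes did.

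In epithelium, hyperplasia against normal gave 37 of 40 negative differences (median -0.55, with 57.7% of all genes positive). None passed the limma test, against 0.0413% of all genes (0.0138% higher, 0.0275% lower), and 2 had an unadjusted p under 0.05, against 3.79%. Fibroblast markers were negative in 7 of 8 (median -0.88, 3 at an unadjusted p under 0.05, none called by limma), with a summed TPM of 40.6 to 194.5 in hyperplasia epithelium and 162.2 to 219.6 in normal epithelium, and Schwann cell markers in 4 of 4 (median -0.59), and their part was not tested. No gene of the list lay above or below without overlap, against 3.84% and 1.55% of all genes. Dysplasia against hyperplasia gave 36 of 40 negative (median -0.69, with 40.8% of all genes positive), none called by limma, against 0% of all genes, and 7 at an unadjusted p under 0.05, against 1.99%. None lay above without overlap (0.571% of all genes did), while Atp2a1, Myh1, Myh4, Cacna1s, Pygm and Mb were lower in all 4 dysplasia libraries (15.0% of 40, against 1.15% of all genes).

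Whether the tumor change differed between compartments was tested in the pairs. None of the 42 passed (limma, 0% of all genes called, 3 of the 42 at an unadjusted p under 0.05 against 0.88% of all genes). The 3 were Tnni1 (-2.27 ± 0.62), Myh3 (-1.91 ± 0.58) and Actn3 (-1.45 ± 0.61), each with a smaller tumor-minus-normal difference in epithelium than in stroma. By list, the median was 1.17 for fast isoforms, -0.78 for slow and -0.92 for developmental isoforms.

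Other genes of muscle were counted from lists that share no member with the 42. Of 24 further sarcomere genes, all 24 had negative differences in epithelium against stroma and 21 were called lower (against 10.7% of all genes). In tumor against dysplasia stroma all 24 differences were positive (median 1.29). At an unadjusted p under 0.05 there were 6, against 2.83% of all genes, and none was called by limma, against 0.143%. Of 15 myogenic regulators and satellite cell genes tested, 12 were positive and 3 negative in tumor against dysplasia stroma (median 0.67). At an unadjusted p under 0.05 there were 5, against 2.83% of all genes. Only 1 passed the limma test, against 0.143% of all genes: Myod1, the regulator that commits myoblasts. It was 2.09, 3.74 and 2.56 in tumor stroma, against 0.24, 0.30, 0.00 and 0.19 in dysplasia stroma (2.64 ± 0.60, limma adjusted p = 0.0457). Each tumor value was above the olfactory receptor mean of its library. The 90th percentile of the olfactory receptor genes was 2.83, 2.398 and 3.085 there, and Myod1 exceeded it only in tumor stroma 2. Myog, myogenin, was 3.49, 4.48 and 3.89 in tumor stroma, against 0.40, 0.00, 1.68 and 0.68 in dysplasia stroma (3.13 ± 0.75, limma adjusted p = 0.0654), and Mymk, a protein of myoblast fusion, was 1.93, 3.11 and 3.17 in tumor stroma, against 0.00, 1.44, 0.00 and 0.45 in dysplasia stroma (2.29 ± 0.61, limma adjusted p = 0.201). For all 3 the tumor libraries lay above every dysplasia library, as for 2.86% of all genes. Pax7, the mark of satellite cells, named after its values were seen, was 0.36, 0.16 and 1.02 in tumor stroma, against 0.00, 0.00, 0.00 and 0.43 in dysplasia stroma, and in each tumor library it was below the olfactory receptor mean.

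Of 15 genes of denervation and atrophy, 1 passed in tumor against dysplasia stroma, against 0.143% of all genes. This was Ankrd1, a stress-responsive ankyrin repeat protein, at 3.77, 4.59 and 2.83 in tumor stroma, against 0.44, 0.99, 0.00 and 0.91 in dysplasia stroma (3.14 ± 0.73, limma adjusted p = 0.0457). All 15 were positive (median 1.11). The calls of Myod1 and Ankrd1 held in 7 of 23 and 8 of 24 alternatives. Of the 6 slow-fibre genes outside the list that were tested, among them the slow myosin Myh7, 3 were positive and 3 negative in tumor against dysplasia stroma (median 0.06). Myh7, also named after its values were seen, was 2.03, 2.18 and 2.55 in tumor stroma, against 1.19, 2.28, 1.55 and 1.97 in dysplasia stroma, with overlap. Of the 14 genes of muscle mitochondria and fuel tested, none passed (limma, 0 at an unadjusted p under 0.05).

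How far the genes moved together was described over the 26 libraries, which share compartments and composition. Spearman's rho of a gene with the mean of the other members was lowest for Tnnc1 (0.289), Tnni1 (0.339), Myh3 (0.341), Casq2 (0.352) and Actn3 (0.513). Over the 13 stroma libraries the values of the same 5 genes, in that order, were 0.302, 0.423, 0.407, 0.644 and 0.532. The genes outside the list whose pattern was most like the mean of the 42, of 15978 ranked, were Cmya5 (0.967), Nrap (0.964), Mypn (0.959), Myom1, Art1, Hfe2, Cox6a2, Tmem182, Lmod2 and Smpx (down to 0.938).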

How the data were processed

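The authors deposited 1 table of log2 TPM values for 26 libraries. Per the submitters' processing notes, the tools included Trimmomatic 0.36, STAR 2.5.1b, HTSeq 0.10.0 and Salmon 0.9.1 with GRCm38.p6, with no role or order given. The values fit log2(TPM + 1), and rows of the same gene identifier were averaged. Linear models were fitted in R 4.3.3 with limma 3.58.1 (variance trend), over all genes that reached a TPM of 1 in 3 or more libraries, with stage and sequencing run as terms. Epithelium and stroma were compared in 13 pairs formed from sample code, age and run, which the labels do not state. Partners' deviations correlated between -0.127 and 0.600. P-values were adjusted over all genes by Benjamini-Hochberg at 0.05. In stroma the prior degrees of freedom (51.2, against 8 residual) weigh the pooled spread heavily. Ratios were tested by exact permutation. The code was tested on simulated data. Named genes were those called (up to 8 by smallest p), else the 3 with the smallest p, plus listed isoforms. Alternatives are in the closing section. The members and lists were chosen with earlier results of these data known.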

Additional observations from a re-analysis of the deposited data

Results flagged for a closer look

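In 46 checks of 4 dysplasia libraries each (22 isoform and marker genes and the mean of the 42 in both compartments), 4 had a library far from the rest. Chance gives about 1 in 20. Acta1 in dysplasia stroma was 4.15 in replicate 4 and between 7.39 and 7.91 in the others. Actn2 in dysplasia stroma was 5.24 in replicate 3 and between 4.2 and 4.31 in the others. Myl1 in dysplasia epithelium was 3.09 in replicate 2 and between 0.63 and 0.75 in the others, and Mybpc2 was 1.64 in the same library and between 0.04 and 0.22 in the others. That library is one in which 3 genes held 18.1% of the TPM.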

How the results depend on the processing

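The count of 35 genes lower in epithelium stayed within 1.5 times under every alternative run (35 to 36 with a library left out, 34 in an unpaired fit with no replicate block). Replicate numbers did not pair libraries within a compartment (6 and 4 of 18 same-numbered pairs correlated over 0.1), and a replicate block gave 2 genes for hyperplasia against normal stroma and 2 for any stage in stroma, and no other changed count. Age as a covariate gave 10 and 8 for the same results. Tumor against dysplasia stroma, 1 gene, gave 0 with pseudocount 0.1, a TPM of 5 in 3 libraries, rescaling or no trend, and 2 with no filter or quantile normalization. Any stage in stroma gave 0 under those first 4 settings. Tumor against normal stroma gave 1 with quantile normalization. With a library left out, counts ran from 0 to 7 for tumor against dysplasia epithelium, 0 to 1 for tumor against normal epithelium, 0 to 4 for any stage in epithelium, 0 to 6 for hyperplasia against normal stroma, 0 to 3 for tumor against dysplasia stroma and 0 to 8 for any stage in stroma. The share of all genes called under these settings is not given here, so the changed counts do not show whether the muscle genes stood out. Casq2 between compartments turned to 0.37 with pseudocount 0.1 and ranged from -0.24 to 0.06 with a library left out. Mb and Actn2 in dysplasia against hyperplasia stroma turned to -0.95 and -0.17 without the 3 stroma libraries and ranged from -0.84 to 3.05 and from -0.12 to 1.93 with a library left out.

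Of the ratios, Myl1 to Myl4 between compartments passed with pseudocount 0.1 (-1.71), TPM minimum 1 (-1.89) and rescaling (-1.41), and ranged from -1.49 to -1.03 with a library left out. Tnnc2 to Tnnc1 lost its call on rescaling (-2.39), an alternative chosen after seeing the data. With TPM minimum 1, Myh4 to Myh2 between compartments turned to -0.88 and Tnni2 to Tnni1 in tumor epithelium to 0.27. Actn3 to Actn2 ranged from -0.24 to 0.10 between compartments and from 2.92 to 3.38 in tumor stroma with a library left out, and was 2.98 there without the 3 stroma libraries. In tumor epithelium it passed only with pseudocount 0.1 (3.40), against 1.6 and no call in the main test. Myl1 to Myl4 in tumor stroma ranged from -2.49 to -1.85 and passed without dysplasia stroma 4. The causes were not tested. Depth is unknown, so no limit by depth can be given.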

Other observations

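In tumor stroma Actn3 was 3.27, 4.76 and 3.8 while the fast troponin C gene Tnnc2 was 7.33, 7.64 and 6.76. In normal stroma Actn3 was near 0 (0.00, 0.98 and 1.59), although Tnnc2 was 7.51, 9.89 and 7.91 in the same libraries. Jsrp1, a protein of the sarcoplasmic reticulum, passed the test for any difference among stages in stroma (limma adjusted p = 0.0391), with 3.68, 4.55 and 2.04 in tumor stroma, 0.22, 0.00, 0.00 and 1.41 in dysplasia stroma and 3.68, 5.65 and 3.72 in normal stroma.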
